A study of Rattus norvegicus with 2 samples.

Results

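The genes described here encode 3 collagen hydroxylases and the collagen chaperone: *P4ha1*, *P4ha2*, *Plod2* and *Serpinh1*. They were taken by their Entrez gene identifiers (64475, 360526, 300901 and 29345), and all 4 were found among the 7803 entries with a usable identifier. RNA was sequenced from H9c2 cells, a clonal myoblast line from embryonic rat heart, after 12 h without serum at 2.5 mM phosphate (high phosphate) or 0.9 mM phosphate (control). With 1 library at each phosphate concentration, no difference below could be checked against replicates or given a p-value. The study asked how raised phosphate changes the transcriptome of cardiomyoblasts.

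A collagen chain is modified in the endoplasmic reticulum before it can fold into a triple helix. Prolyl 4-hydroxylase turns proline into 4-hydroxyproline, which keeps the helix stable at body temperature, and lysyl hydroxylases make the hydroxylysine that later carries sugars and crosslinks. These enzymes consume oxygen and 2-oxoglutarate and need iron and ascorbate. The chaperone HSP47, the product of *Serpinh1*, binds the folded procollagen and leaves it after transport towards the Golgi. In heart, fibroblasts are the main collagen producers, and the amount and crosslinking of collagen set the stiffness of scar and interstitium. *P4ha1*, *P4ha2* and *Plod2* are known targets of the oxygen-regulated factor HIF1 in fibroblasts, and *Serpinh1* is a known target of heat shock factor.

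All 4 genes were listed higher in the high phosphate library, and *P4ha2* differed most. *P4ha2*, a catalytic alpha subunit of prolyl 4-hydroxylase, was listed at 12.85 FPKM in high phosphate and 0.94 FPKM in control, a ratio of listed values of 13.7. FPKM divides the fragments of a gene by the length of its transcript and by the size of the library, so levels of different genes can be set side by side. *Plod2*, the lysyl hydroxylase that acts on the telopeptides of collagen, was listed at 10.05 FPKM in high phosphate and 4.72 FPKM in control (listed ratio 2.13). *P4ha1*, another alpha subunit, was listed at 23.94 FPKM in high phosphate and 13.21 FPKM in control (listed ratio 1.81). *Serpinh1* was far more abundant than the 3 enzymes and differed least, with 1693 FPKM in high phosphate and 1426 FPKM in control (listed ratio 1.19).

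**Figure D1:**
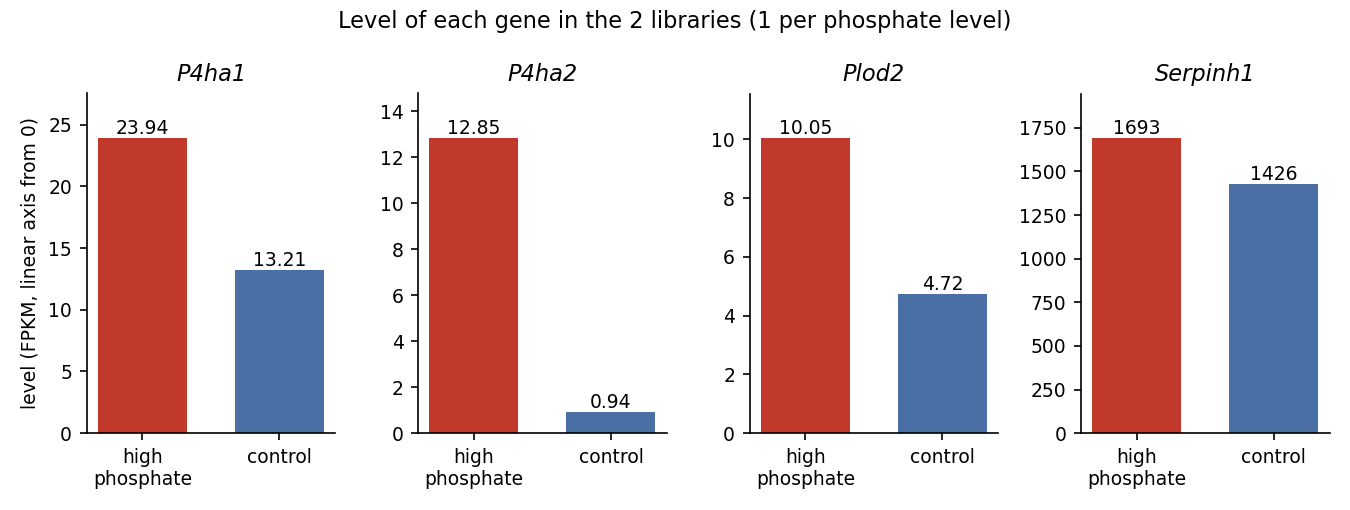
Level of each gene in FPKM on linear axes from 0, with the high phosphate library in red and the control library in blue; each bar is 1 library, so there is no error bar. All 4 genes are higher in high phosphate, from 12.85 against 0.94 FPKM for *P4ha2* to 1693 against 1426 FPKM for *Serpinh1*.

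On the scale of log2((high phosphate FPKM + 1)/(control FPKM + 1)), which understates differences of low genes, the log2 ratios were 2.84 for *P4ha2*, 0.95 for *Plod2*, 0.81 for *P4ha1* and 0.25 for *Serpinh1*. Of the 4366 measured genes, those with a mean of at least 1 FPKM over both libraries, 1.76% were at least 2-fold higher on this scale and 0.87% at least 2-fold lower. Among the 4 genes, only *P4ha2* was at least 2-fold higher. At 1.5-fold, 7.21% of measured genes were higher, as were *P4ha2*, *Plod2* and *P4ha1*. The median log2 ratio was 0.88 for the 4 genes and 0.00 for all measured genes. This median and the counts of the 4 genes include *P4ha2*, which passed the filter on mean FPKM only through its high phosphate value. They are therefore not read as a result about the 4 genes as a set. The split over all genes depended on scaling: 77 were at least 2-fold higher and 38 lower as deposited, and 54 were higher and 56 lower with both libraries at the same FPKM sum, which moved the median log2 ratio of all genes to -0.15. At the same sum the log2 ratio of *Serpinh1* was 0.074, and those of *P4ha2*, *Plod2* and *P4ha1* were 2.68, 0.79 and 0.65.

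Ranked by log2 ratio among the 4366 measured genes, *P4ha2* was number 2, *Plod2* number 91, *P4ha1* number 152 and *Serpinh1* number 1000. *P4ha2* passed the filter on mean FPKM through its high phosphate value alone, so its rank is set in part by the difference that is ranked, and it is not placed among genes of like abundance. In the bin of *Plod2* (3.63 to 9.32 FPKM), 1 of 5 equal bins of mean FPKM, 23 of 872 genes had a higher ratio, and its 0.95 fell just inside the central 95% of ratios there, which ended at 0.97. *P4ha1* was slightly past the upper end of the central 95% in its own bin (0.81 against 0.79), with 21 of 873 genes higher. In the bin of the most abundant genes (52.0 to 6374 FPKM), which held *Serpinh1*, 226 of 873 had a higher ratio and the median log2 ratio was 0.10. *Plod2* and *P4ha1* thus stood near the upper end of their bins, and *Serpinh1* did not. The bin of *Serpinh1* is wide and holds many genes of much lower level.

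**Figure D2:**
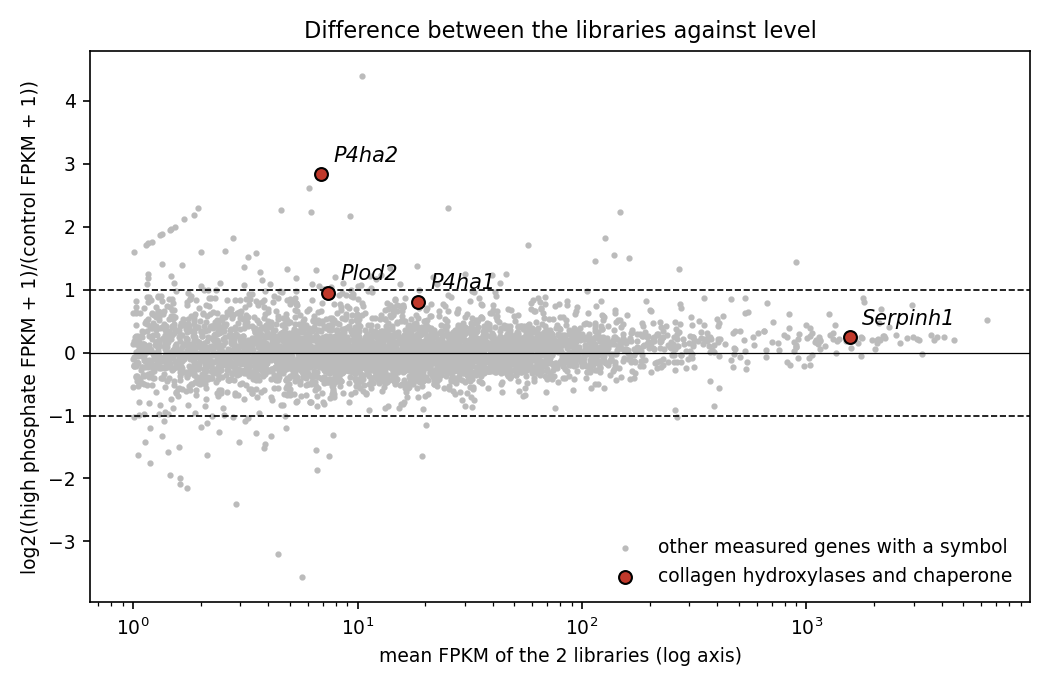
Log2 ratio of high phosphate over control, with 1 added to each FPKM, against the mean FPKM of both libraries on a log axis. Each grey point is a measured gene with a symbol, red points are the 4 genes described, and dashed lines mark 2-fold. *P4ha2* (2.84) lies above the upper line, *Plod2* (0.95) and *P4ha1* (0.81) just under it and *Serpinh1* (0.25) near 0 among the most abundant genes.

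The low control value of *P4ha2* bears on its ratio. Only 3 measured genes, *P4ha2* included, were under 1 FPKM in control and at 10 FPKM or more in high phosphate, and 1 gene showed the opposite. An FPKM estimate near 0 can be a failed estimate where a gene has several isoforms. The RefSeq gene table for GRCr8 lists 10 transcripts for *P4ha2*, against 5 for *P4ha1*, 3 for *Serpinh1* and 2 for *Plod2*. Whether isoform assignment moved the *P4ha2* value was not tested. Of the 4 genes, *P4ha2* was the 1 under 1 FPKM in a library. The nearest protein-coding genes beside *P4ha2* in that table that were also listed here, *Csf2* and *Slc22a4*, were at 0.41 and 0.06 FPKM in high phosphate and at 0 and 0.20 FPKM in control.

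Each gene was also placed by its FPKM among the 7803 ranked entries of each library. *Serpinh1* was number 36 in both libraries. *P4ha1* was number 1588 in high phosphate and number 2241 in control, *Plod2* number 2550 in high phosphate and number 3244 in control, and *P4ha2* number 2259 in high phosphate and number 4357 in control. In high phosphate the levels therefore ran *Serpinh1*, *P4ha1*, *P4ha2*, *Plod2*, and in control *Serpinh1*, *P4ha1*, *Plod2*, *P4ha2*. With 1 library per level, whether *P4ha2* and *Plod2*, which traded places, differ beyond the spread of replicates is unknown.

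The 250 bases before the annotated start of each gene are shown because the hydroxylase genes and the chaperone gene answer to different known factors. The windows come from RefSeq on GRCr8, where all 4 genes matched, whereas the FPKM values were made on Rnor_6.0. Each is written 5′ to 3′ on the strand of the gene, ending at the base before the start site. In the 3 hydroxylase windows capitals mark the core of the HIF binding motif, ACGTG or GCGTG, on either strand. In the *Serpinh1* window they mark the core of a heat shock element, TTCNNGAA.
P4ha1, chr20:27844796-27845045, plus strand: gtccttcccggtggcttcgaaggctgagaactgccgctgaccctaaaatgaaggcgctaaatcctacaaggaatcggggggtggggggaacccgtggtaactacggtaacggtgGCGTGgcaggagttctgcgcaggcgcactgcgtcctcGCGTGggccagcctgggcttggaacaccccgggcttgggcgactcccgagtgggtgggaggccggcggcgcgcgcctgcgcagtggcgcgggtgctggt
P4ha2, chr10:38743644-38743893, plus strand: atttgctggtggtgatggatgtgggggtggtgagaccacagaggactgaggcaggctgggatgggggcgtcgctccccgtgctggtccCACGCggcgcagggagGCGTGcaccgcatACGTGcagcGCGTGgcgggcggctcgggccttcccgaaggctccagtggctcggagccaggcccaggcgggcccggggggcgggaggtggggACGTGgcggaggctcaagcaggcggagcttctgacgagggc
Plod2, chr8:101964068-101964317, plus strand: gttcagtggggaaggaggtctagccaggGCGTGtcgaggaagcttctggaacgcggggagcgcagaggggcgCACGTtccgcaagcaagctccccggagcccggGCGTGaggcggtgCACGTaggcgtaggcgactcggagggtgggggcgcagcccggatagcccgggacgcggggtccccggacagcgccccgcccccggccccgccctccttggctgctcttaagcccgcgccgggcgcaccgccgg
Serpinh1, chr1:163062977-163063226, minus strand: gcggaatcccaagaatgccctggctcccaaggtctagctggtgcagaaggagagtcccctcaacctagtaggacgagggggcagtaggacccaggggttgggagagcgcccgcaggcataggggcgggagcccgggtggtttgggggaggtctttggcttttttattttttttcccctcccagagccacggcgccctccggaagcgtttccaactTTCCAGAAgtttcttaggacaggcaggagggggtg

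The *P4ha2* window held 5 HIF cores, 2 of them ACGTG and 3 GCGTG, the nearest beginning 41 bases before the start site. The *Plod2* window held 4 cores, 2 of each form, between 222 and 129 bases before the start. The *P4ha1* window held 2, both GCGTG, beginning 136 and 99 bases before it. The *Serpinh1* window held none. Of all 33469 windows of this length in the table, 36.7% held at least 1 core of either form, as did 59.0% of the 3770 windows of measured genes. Of all windows, 2.44% held at least 4 and 1.04% at least 5, and these shares were not computed for the windows of measured genes. Both forms contain CG and these windows are rich in G and C (67.6% for *P4ha1*, 72.4% for *P4ha2* and 74.8% for *Plod2*). Among all windows, measured or not, within 5 percentage points of the same G and C content, 35.6% held at least as many cores as *P4ha1*. For *P4ha2* the share was 4.54% and for *Plod2* 8.52%. The other lysyl hydroxylase genes, *Plod1* and *Plod3*, had 1 GCGTG core each. The 2 forms differ in their first letter and no marked matches overlapped.

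TTCNNGAA, which reads the same on both strands, was in 7.48% of all windows and in 6.23% of the windows of measured genes. Among all windows, measured or not, within 5 percentage points of the same G and C content, it was in 5.98% for *Serpinh1*, 2.30% for *P4ha2* and 1.80% for *Plod2*. In *Serpinh1* it began 35 bases before the start site. *P4ha2* and *Plod2* each held 1 match too, beginning 103 and 207 bases before the start, and *P4ha1*, *Plod1* and *Plod3* held none. The CCAAT box, sought on both strands, was in 34.0% of all windows and in none of these 6. A match describes the letters only and shows no binding.

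**Figure D3:**
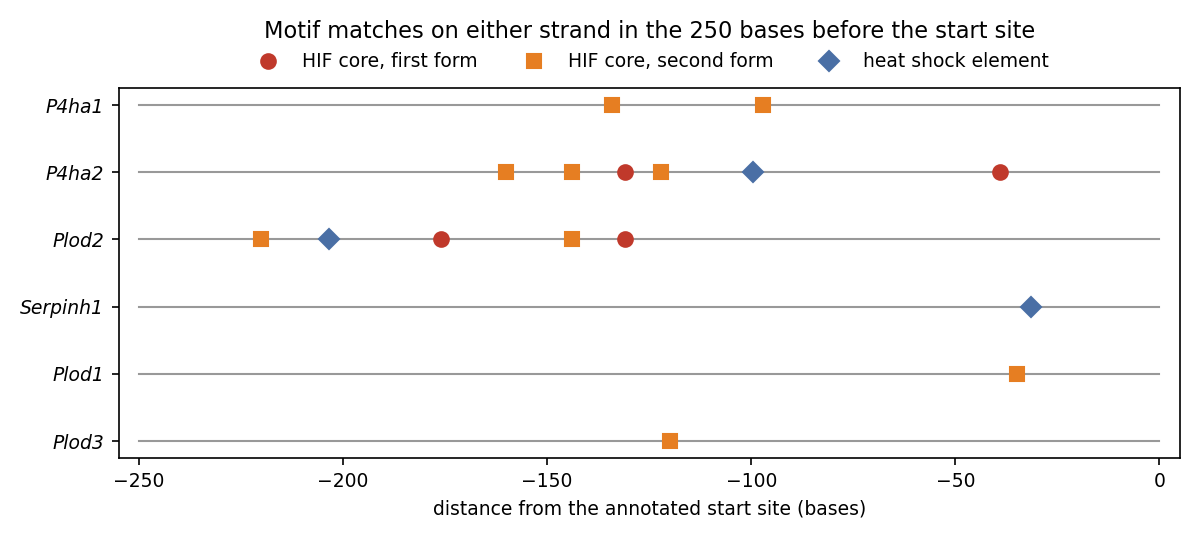
Positions of motif matches on either strand, in bases before the annotated start site at 0, for the 4 genes and the other lysyl hydroxylases. Circles are the HIF core ACGTG, squares the HIF core GCGTG and diamonds the heat shock element. *P4ha2* and *Plod2* carry 5 and 4 HIF cores and *Serpinh1* none.

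The listed makeup of the prolyl 4-hydroxylase alpha subunits *P4ha1* and *P4ha2* differed between the libraries. *P4ha1* and *P4ha2* summed to 36.8 FPKM in high phosphate and 14.2 FPKM in control, 2.6 times as much. *P4ha2* supplied 34.9% of that sum in high phosphate and 6.64% in control. *P4ha1* was therefore 1.86 times as abundant as *P4ha2* in high phosphate and 14.1 times in control. The comparison rests on the low control value of *P4ha2* (0.94 FPKM), and whether isoform assignment moved that value was not tested. Of the other subunits, *P4ha3* and the shared beta subunit gene *P4hb* were not analysed here.

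Among lysyl hydroxylases, *Plod2* was the least abundant in both libraries. *Plod1*, which hydroxylates lysines of the helix, was listed at 82.6 FPKM in high phosphate and 44.6 FPKM in control. *Plod3*, which also adds sugars to hydroxylysine, was listed at 69.2 FPKM in high phosphate and 56.6 FPKM in control. *Plod2* made up 6.21% of the summed FPKM of the 3 genes in high phosphate and 4.46% in control, while the sum itself was 162 FPKM in high phosphate and 106 FPKM in control. The log2 ratio of *Plod1* (0.88) was close to that of *Plod2* (0.95), and that of *Plod3* was lower (0.28).

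**Figure D4:**
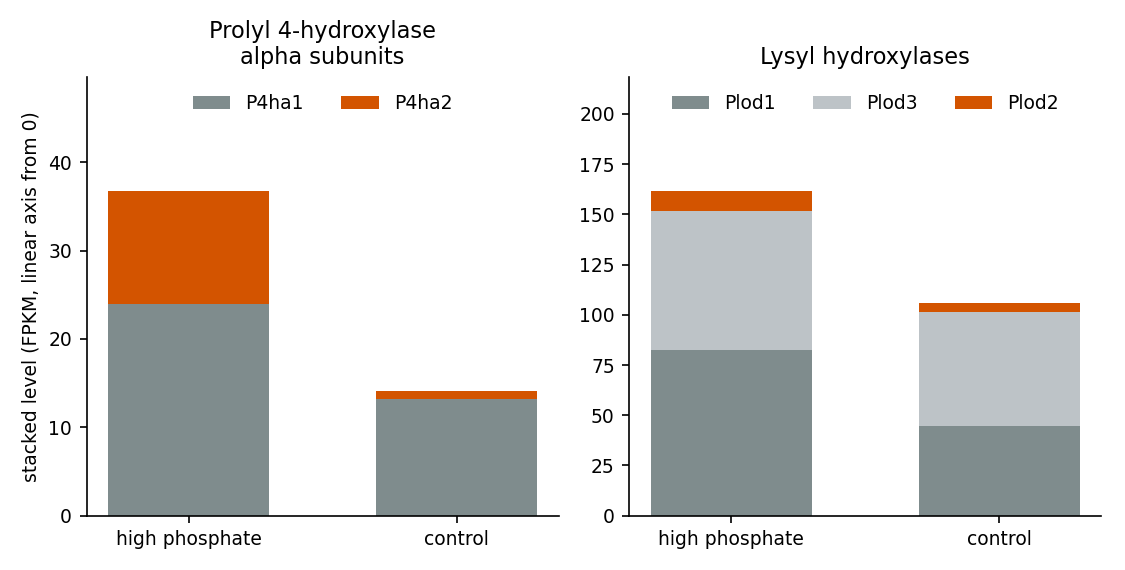
Stacked FPKM, on linear axes from 0, of the prolyl 4-hydroxylase alpha subunits and of the lysyl hydroxylases, high phosphate at left and control at right in each panel, 1 library per bar. *P4ha2* fills 34.9% of its bar in high phosphate and 6.64% in control, whereas *Plod2* stays a thin part of the lysyl hydroxylase bars (6.21% in high phosphate and 4.46% in control). The control value of *P4ha2* is low (0.94 FPKM), and whether isoform assignment moved it was not tested.

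Levels were also set against those of collagen, the substrate. *Col3a1*, the chain of type III collagen and by far the most abundant measured collagen, was listed at 844 FPKM in high phosphate and 489 FPKM in control. *Col3a1* was 35.2 times as abundant as *P4ha1* in high phosphate and 37.0 times in control, so these genes differed by nearly the same factor. Against *P4ha1* and *P4ha2* together it was 22.9 times as abundant in high phosphate and 34.5 times in control. That comparison also rests on the low control value of *P4ha2*. *Serpinh1* was 2.01 times as abundant as *Col3a1* in high phosphate and 2.92 times in control. The 5 measured collagen chains, of 36 written, summed to 1049 FPKM in high phosphate and 603 FPKM in control, and *Serpinh1* was 1.61 times that sum in high phosphate and 2.36 times in control. Besides *Col3a1* (0.79), the log2 ratios were 0.76 for *Col18a1* and 0.83 for *Col4a1*. *Col1a1* was listed at 1.80 FPKM in high phosphate and 0.79 FPKM in control, and *Col8a2* at 2.02 FPKM and 0. Both passed the filter on mean FPKM only through high phosphate, so their ratios are not read. The chaperone transcript was thus lower relative to the listed collagens in high phosphate, although its own level was higher. These ratios within a library do not depend on how the libraries are scaled.

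The other genes of collagen modification, folding, export and processing were mostly higher too, by less than *P4ha2*. Of 46 written, 18 were measured: 17 had a log2 ratio above 0, against 50.5% of all measured genes, none was at least 2-fold higher or lower, and their median log2 ratio was 0.42. At the same FPKM sum, where the median log2 ratio of all measured genes was -0.15, 13 of the 18 were higher. The share of all measured genes above 0 at that scaling was not computed. The prolyl 3-hydroxylase gene *P3h3* was listed at 20.1 FPKM in high phosphate and 11.7 FPKM in control. *P3h1*, whose enzyme works in a complex that modifies and folds procollagen, was listed at 61.7 FPKM in high phosphate and 45.6 FPKM in control. The collagen galactosyltransferase *Colgalt1* was nearly level, with 61.9 FPKM in high phosphate and 56.1 FPKM in control.

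Among the other genes of collagen folding, the log2 ratio was 0.86 for *Sparc*, which encodes a collagen-binding matrix protein, with 592 FPKM in high phosphate and 326 FPKM in control. The prolyl isomerases *Fkbp9* and *Fkbp10* had log2 ratios of 0.62 and 0.47. *Fkbp10* encodes FKBP65, which works with HSP47 and lysyl hydroxylase 2, and was listed at 133 FPKM in high phosphate and 95.4 FPKM in control. *Tmem38b*, an ion channel of the endoplasmic reticulum needed for collagen folding, had 8.08 FPKM in high phosphate and 8.03 FPKM in control. All but *Tmem38b* of these genes had a larger log2 ratio than *Serpinh1*.

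Procollagen export genes differed little. Their 7 measured genes had a median log2 ratio of 0.21, from -0.07 for *Klhl12*, a ubiquitin ligase adaptor linked to large COPII carriers, to 0.45 for *Trappc2*. Between them lay *Kdelr2* (0.41), the receptor that returns HSP47 to the endoplasmic reticulum, and the coat genes *Sec24d* (0.24), *Sar1a* (0.21), *Sec13* (0.14) and *Sar1b* (0.13). Outside the cell, the enhancer of propeptide cleavage *Pcolce* was listed at 826 FPKM in high phosphate and 589 FPKM in control, and the crosslinking oxidase *Loxl1* at 151 FPKM in high phosphate and 101 FPKM in control. The protease gene *Bmp1*, under the mean of 1 FPKM, was listed at 0.01 FPKM in high phosphate and 1.42 FPKM in control.

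**Figure D5:**
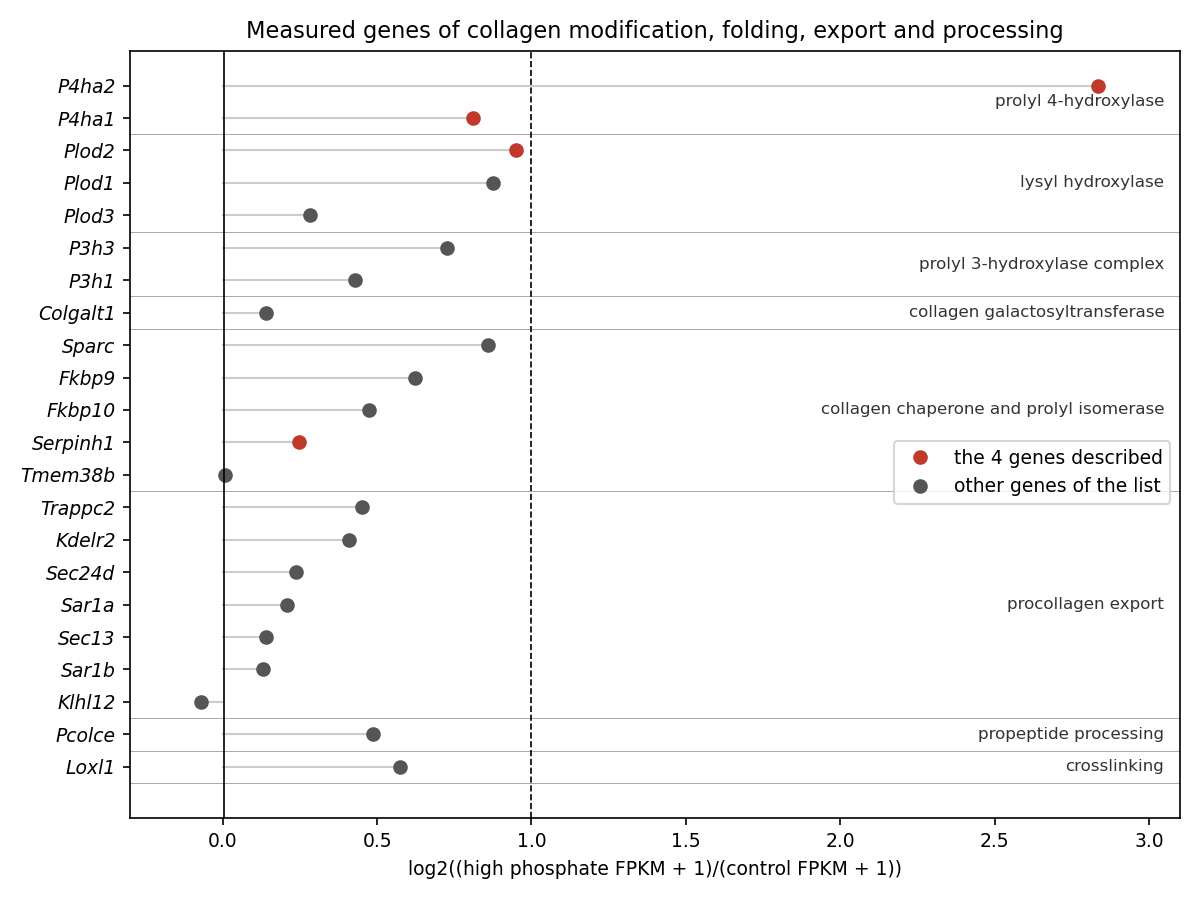
Log2 ratio of high phosphate over control, with 1 added to each FPKM, for the 22 measured genes of collagen modification, folding, export and processing, grouped by role. Red points are the 4 genes described and grey points the others, the solid line marks the median of all measured genes (0.00) and the dashed line 2-fold. Only *P4ha2* passes the dashed line, and only *Klhl12* lies below 0.

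Other enzymes of the same chemistry did not share a direction. Of 15 measured 2-oxoglutarate dioxygenase genes besides *P4ha1*, *P4ha2* and *Plod2*, 8 had a log2 ratio above 0 and 7 below, with a median of 0.16. That split is near the share over all measured genes, of which 50.5% were above 0. The 4 that act on collagen were all above 0 (median 0.58), and the 11 others were 4 above and 7 below. Of the 11 others, *Alkbh1* and *Alkbh7* are counted above 0 though they passed the filter on mean FPKM only through high phosphate. *Alkbh7* was listed at 1.74 FPKM in high phosphate and 0.86 FPKM in control. *Alkbh1*, a nucleic acid demethylase, was listed at 2.41 FPKM in high phosphate and 0.28 FPKM in control and passed the filter on mean FPKM only through its high phosphate value, so its place in the list is not read. Next came *Plod1* (0.88), and the lowest were *Alkbh2* (-0.63) and *Alkbh4* (-0.31), both of the same demethylase family. Of the oxygen-sensing HIF prolyl hydroxylases, *Egln3* was listed at 0.02 FPKM in high phosphate and 0.03 FPKM in control.

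Genes of cosubstrate supply (2-oxoglutarate, ascorbate and iron), of succinate and of oxidising folding had a median log2 ratio of 0.06 over 19 measured. Of them 12 were above 0, *Pdia3* and *Pdia6* of oxidising folding included, and 7 below, against 50.5% of all measured genes above 0. The highest were *Idh1*, the cytosolic enzyme that makes 2-oxoglutarate, with 2.45 FPKM in high phosphate and 0.49 FPKM in control, which also passed the filter only through high phosphate, and the haem oxygenase *Hmox1*, which releases iron, with 140.2 FPKM in high phosphate and 70.8 FPKM in control. The lowest were the transferrin receptor *Tfrc*, with 14.6 FPKM in high phosphate and 22.0 FPKM in control, and *Gsto1*, which can reduce dehydroascorbate, with a log2 ratio of -0.31. HIF1 targets other than the hydroxylases had a median log2 ratio of 1.37 over 15 measured of 30 written. Of these 15, 10 were at least 2-fold higher, against 1.76% of all measured genes. The list was chosen with earlier results of these data known, and whether HIF1 acted in these cells was not tested. *Pdk1*, which inactivates pyruvate dehydrogenase, had 42.5 FPKM in high phosphate and 7.84 FPKM in control, and *Bnip3*, a promoter of mitophagy, had 245 FPKM in high phosphate and 51.3 FPKM in control. The lowest were *Tfrc* and *Vldlr* (0.13). By that measure *P4ha1* (0.81) and *Plod2* (0.95) lay below the median of the list. *P4ha2* passed the filter on mean FPKM only through its high phosphate value, so it is not placed in the list. Genes of the unfolded protein response, with which *Serpinh1* shares the endoplasmic reticulum, had a median of 0.58 over 11 measured. Their highest were *Hsp90b1* and *Pdia6* (both 0.87) and their lowest *Atf4* (0.02) and *Syvn1* (-0.03). *Pdia3* and *Pdia6* are counted in this list and in the cosubstrate list above. TGF-beta ligands, receptors and targets, which include known inducers of collagen genes, had a median of 0.22 over 9 measured. They ran from *Smad7* (-1.32) and *Tgfbr1* (-0.21) up to *Acta2* (0.69) and *Tgfb3* (0.75).

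The genes whose pair of levels lay nearest to each of the 4, over these 2 libraries only, were found by the distance between log2(FPKM + 1) values. For *P4ha1* they were *Nuak2* and *Mrc2* (0.04 and 0.07 log2 units away), with 23.3 and 23.5 FPKM in high phosphate and 13.2 and 13.9 FPKM in control. For *Plod2* they were *Serpine2* and *Tpx2* (0.04 and 0.07). For *Serpinh1* they were the ribosomal protein genes *Rpl23* and *Rpl7* (both 0.06). *P4ha2* had no such close neighbour: the nearest were *Hnrnpa3* at 0.19, with 11.2 FPKM in high phosphate and 0.98 FPKM in control, and *Mgp* at 0.44, with 10.9 FPKM in high phosphate and 1.52 FPKM in control.

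Since fibroblasts make collagen, markers of cell types were read beside these results. Of 12 fibroblast markers 7 were measured, and 5 of them were higher, against 50.5% of all measured genes. *Col1a1*, 1 of these 5, passed the filter on mean FPKM only through high phosphate. The 7 markers summed to 4451 FPKM in high phosphate and 4046 FPKM in control. *S100a4* was most abundant (3249 FPKM in high phosphate and 3291 FPKM in control), and *Pdgfra* was listed at 0 in both. Log2 ratios were highest for *Col3a1* (0.79) and *Lum* (0.78) and lowest for *Pdgfrb* and *S100a4* (both -0.02). Of 12 myoblast markers 2 were measured, *Des* with 153 FPKM in high phosphate and 129 FPKM in control and *Myod1* with 1.59 FPKM in high phosphate and 6.11 FPKM in control. They summed to 155 FPKM in high phosphate and 135 FPKM in control. The listed myoblast markers *Myog* and *Chrna1* were under 1 FPKM in both. *Tnnt2*, *Actc1*, *Gata4* and *Mef2c* were not analysed here, so the cardiac label could not be checked by them. No endothelial or erythroid marker was measured. The leukocyte marker *Cd68* had 1.38 FPKM in high phosphate and 1.06 FPKM in control, with *Ptprc* listed at 0 in both, and the epithelial marker *Krt8* had 247 FPKM in high phosphate and 139.7 FPKM in control, with *Epcam* at 0 in high phosphate and 0.02 in control. Of 8 measured reference genes in wide use 5 were above 0, against 50.5% of all measured genes, with a median log2 ratio of 0.20. The most abundant, *Gapdh*, had 3710 FPKM in high phosphate and 2197 FPKM in control, and the log2 ratios were highest for *Pgk1* (1.44) and *Gapdh* (0.76) and lowest for *Tfrc* (-0.56) and *Sdha* (-0.08). The lists share genes: *Pgk1* and *Tfrc* are also HIF1 targets above, and *Tfrc* and *Sdha* are also in the cosubstrate list. The part of cell state or of library makeup in the results was not tested. In a culture, more cells of a kind and more RNA per cell cannot be told apart.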

How the data were processed

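RNA of 2 H9c2 libraries, 1 per phosphate level, was analysed. The authors deposited FPKM with 2 decimals, per the file headers. Rnor_6.0, TopHat2 2.1.1, Cufflinks 2.2.1, bcl2fastq and Cuffdiff appear, without their roles, in the submitters' processing notes. Annotation, strand, multi-mapping and scaling settings were not given in the sources used here. Without counts the depth is unknown and no counting interval is given. Listed FPKM summed to 346857 in high phosphate and 307622 in control.

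Of 8039 entries, 236 without a usable identifier (8.56% of the high phosphate and 8.20% of the control FPKM) were left out. Symbols came from the RefSeq gene table for GRCr8 (7746 of 7803 matched). Ratios used a pseudocount of 1, and genes averaging 1 FPKM or more over both libraries were compared. The genes, lists and naming rule were chosen with earlier results of these data known. Named were all 4 genes, the measured genes of the collagen list, the 2 highest and 2 lowest of other lists, the most abundant marker of each cell type or reference list, and the 2 nearest genes in level. *Col3a1*, *Bmp1*, *Egln3* and genes named as absent, at 0 or as chromosomal neighbours were added after their values were seen. Mitochondrially encoded genes were not analysed here. Alternatives were other pseudocounts, scalings, filters and thresholds. Calculations were tested on simulated data and used Python 3.11.15, numpy 2.4.6, pandas 2.3.3 and matplotlib 3.10.9.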

Additional observations from a re-analysis of the deposited data

How the results depend on the processing

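None of the other scalings turned the direction of any of the 4 genes. Pseudocounts, filters and thresholds cannot turn a direction, so they do not test it. *P4ha2* stayed at least 2-fold higher in each setting. For *P4ha1*, *P4ha2*, *Plod2* and *Serpinh1* in that order, the log2 ratios were 0.65, 2.68, 0.79 and 0.074 at the same FPKM sum, 0.73, 2.75, 0.87 and 0.16 at the same sum without the 100 most abundant genes, 0.83, 2.85, 0.97 and 0.26 with upper quartiles equalised, and 0.81, 2.83, 0.95 and 0.24 with the median ratio set to 1. With a pseudocount of 0.5 the hydroxylases had 0.83, 3.21 and 1.02, and with 0.1 they had 0.85, 3.64 and 1.07. *Plod2* thus passed 2-fold under both pseudocounts, giving 2 of the 4 genes, and 3 passed at a 1.5-fold threshold. Other collagen genes at least 2-fold higher numbered 1 with no filter on low values (*Sec23b*, at 1.25 FPKM in high phosphate and 0 in control, named after its value was seen), and 4 passed 1.5-fold. Other dioxygenase genes at least 2-fold higher numbered 1 (*Alkbh1*) at the settings of the report, 0 from a mean of 5 FPKM, 0 at 3-fold and 3 at 1.5-fold. Over all genes, the higher and lower counts were 151 and 62 with a pseudocount of 0.1, 41 and 8 from a mean of 5 FPKM, 315 and 147 at 1.5-fold and 25 and 13 at 3-fold.

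The values are limited by 1 library per phosphate level, unknown depth, and entries that cover part of the collagen genes. No paired analysis was possible because no group has a replicate.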
